A study of Rattus norvegicus with 21 samples.

Results

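DNA methylation of the rat dorsal striatum was compared between the 2 ends of the study's design: 7 samples from lesioned, L-DOPA-treated rats and 6 from unlesioned, saline-treated rats, out of 21 bisulfite libraries in all. The 13 samples were taken by their titles. All samples were labelled as dorsal striatum of wild-type Sprague Dawley rats aged 120 days. Per the labels, lesions were made by injecting 6-OHDA (6-hydroxydopamine, a toxin taken up by dopamine neurons) into the medial forebrain bundle of the left side, and 3 weeks of recovery followed. L-DOPA was then given daily at 6 mg/kg for 7 days, a schedule meant to bring on stable dyskinesia, and striata were dissected 3 h after the last dose. The labels carry the same protocol text for every sample, and they say neither how long saline was given nor whether unlesioned tissue came from other animals, sham operations or the opposite hemisphere. The comparison joins lesion and drug, which cannot be told apart in it. For that reason the 8 lesioned, saline-treated libraries are given beside the called CpGs and some of the other leading sites. Values described as under L-DOPA come from samples with both lesion and drug. Since the labels name no animals, the p-values reflect only how far samples of a group differ.

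Methyl groups on cytosines of CpG dinucleotides are set by DNA methyltransferases and removed through oxidation by TET enzymes. In mammalian tissue most CpGs are methylated, while CpG-rich stretches called CpG islands, many of them at promoters, are mostly not. Intermediate levels in a tissue can mean that cells, cell types or alleles differ. The striatum consists largely of projection neurons that receive dopamine from the midbrain through the bundle that was lesioned, together with interneurons, glia and vessels. Bulk DNA was sequenced here, so a changed level per cell and a changed mix of cells cannot be told apart. Bisulfite reads C for both methylated and hydroxymethylated cytosine, and a methylation level is the percent of reads that still show C.

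Levels were examined at 3 sizes: single CpGs with both strands merged, tiles of 250 bp and windows of 1000 bp. A library's listed cytosines had at least 10 reads each and a median of 37 to 70 reads in the libraries compared, and a tested tile held a median of 162 to 283 reads per library, summed over its cytosines. Deposited library numbers fall into 2 runs. The later run holds all 6 unlesioned and 4 of the L-DOPA libraries, and the other 3 L-DOPA libraries belong to the earlier run, so values within the later run are given beside the pooled ones. The sources used here do not say what sets the runs apart. In 3 of the 13 libraries the reads were concentrated in tiles rich in CpGs: the ratio of median reads in tiles of 15 or more CpGs to that in tiles of 2 or 3 CpGs was 30.2 in L-DOPA replicate 3, 31.7 in L-DOPA replicate 7 and 33.6 in unlesioned replicate 1, and at most 24.9 in the other libraries. These high-ratio libraries also had the lowest mean levels, and results are given with and without them. No rn5 genome or gene annotation was used here, so sites are named by rn5 position, without genes or sequence.

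In the main model, single CpGs on chromosomes 5, 7 and 12 were called lower after lesion and L-DOPA than in unlesioned striatum. Not every setting kept these calls, as described below. Of 768736 CpGs tested, 5 passed the test, which is 0.00065% (quasi-binomial model, Benjamini-Hochberg adjusted p under 0.05). All 5 were lower under L-DOPA, with differences of −43.2 to −14.5 percentage points, and at each of them every L-DOPA library lay below every unlesioned library. They form 3 sites: 2 CpGs 34 bp apart on chromosome 5, 2 CpGs 23 bp apart on chromosome 7, and 1 CpG on chromosome 12. CpGs this close are read by the same fragments and are not independent. At an unadjusted p under 0.05 there were 51534 CpGs (6.70%), of which 35272 were lower (4.59%) and 16262 higher (2.12%). Groups did not overlap at 0.0591% of the CpGs measured in all 13 libraries with L-DOPA lower, and at 0.0245% with L-DOPA higher.

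The CpG at chr5:76371554 was the most deeply read of these, with at least 129 reads in each of the 21 libraries. Its level was 62.2% at the lowest, 78.6% at the median and 87.8% at the highest under L-DOPA, and 88.4%, 93.2% and 97.0% in unlesioned samples. The groups thus came within 1 point of each other without overlapping, and the unlesioned values were tightly grouped near full methylation. The means were 75.5% ± 8.66 (SD, n = 7) and 93.0% ± 3.01 (n = 6), a fall by 17.5 points (SE 3.50, adjusted p = 0.0155 in the quasi-binomial model). Lesioned saline libraries averaged 83.0% ± 4.89 (n = 8). The CpG at chr5:76371588 ran from 62.3% to 90.8% under L-DOPA and from 93.7% to 100% in unlesioned samples. Lesioned saline averaged 88.2% ± 2.68, and the fall from unlesioned to L-DOPA was by 14.5 points (SE 4.05, adjusted p = 0.0425). The CpGs between and beside them, at 76371573 and 76371596, differed by −14.9 points (adjusted p = 0.0582) and −12.3 points (adjusted p = 0.148), and the CpG at 76371479, with a median of 39 reads, by −9.14 points (SE 6.97). The lowest L-DOPA values at these sites came from replicates 3 and 7, both high-ratio libraries. Without the 3 high-ratio libraries the differences at 76371554 and 76371588 were −14.3 and −9.71 points, and both CpGs still passed (adjusted p = 0.00547 and 0.00816). In the later run alone the differences were −17.6 and −16.5 points. Only cytosines of the reverse strand were listed at this site.

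On chromosome 7, chr7:2876107 ranged from 65.3% to 85.5% under L-DOPA, with a median of 71.6%, and from 93.2% to 100% in unlesioned samples, with a median of 97.9%. A gap of several points separated the groups. The means were 73.7% ± 6.97 and 97.3% ± 2.72, a fall by 23.6 points (SE 2.86, adjusted p = 0.0155), and lesioned saline averaged 81.1% ± 9.48. The CpG at chr7:2876130 averaged 81.8% ± 5.57 against 97.6% ± 2.36, a fall by 15.8 points (SE 2.32, adjusted p = 0.0343). Lesioned saline averaged 85.4% ± 5.61 there. This CpG was read on both strands, and the forward strand fell by 8.62 points where the reverse strand fell by 19.7 points. Of the 7 other tested CpGs within 250 bp of chr7:2876107, 6 had lower means under L-DOPA, with differences of −15.8 to −11.99 points, and the CpG at 2876200 differed by 0.53 points. Depth was lower here, with a median of 56 reads per library at 2876107 and 90 at 2876130. The 250 bp tile around both CpGs, 2876001 to 2876250, differed by −11.9 points (SE 4.26, adjusted p = 0.624) over both strands.

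The largest of the 5 differences was at chr12:39242451, read on the forward strand with a median of 72 reads. L-DOPA libraries ran from 26.1% to 70.8%, with a median of 41.6%, and unlesioned libraries from 83.3% to 100%, with a median of 87.1%. The spread was wide within the L-DOPA group, with replicates 3 and 6 lowest and replicate 1 highest. The means were 45.3% ± 17.04 and 88.5% ± 6.32, a fall by 43.2 points (SE 6.94, adjusted p = 0.0155), and lesioned saline averaged 60.6% ± 12.2. The 250 bp tile around it, 39242251 to 39242500, averaged 66.1% against 81.3% and differed by −15.3 points (SE 4.51, adjusted p = 0.632). Of 10 other tested CpGs within 250 bp, 5 had lower means under L-DOPA. These were the nearest ones, with 39242432 at −22.9 points (SE 7.43), 39242415 at −18.8 points (SE 5.64), 39242479 at −14.8 points (SE 6.28), 39242508 at −11.8 points (SE 4.89) and 39242398 at −5.68 points (SE 7.05). The next one, 39242371, was higher by 2.90 points (SE 5.19), at 76.6% against 73.7%. The 4 CpGs from 39242286 to 39242307 lay above 92% in both groups and differed by 0.21 to 2.66 points.

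The calls at single CpGs rested on the libraries and the model used. Their direction held in the settings run, which follows largely from their choice by small p and from groups that do not overlap. None of the 5 passed when L-DOPA replicate 4, unlesioned replicate 3 or unlesioned replicate 6 was left out. In the later run tested alone 0 CpGs passed. The smallest adjusted p there, 0.0634 in the quasi-binomial model, was that of chr9:25648503, a CpG higher under L-DOPA that is described below. With the spread estimated from the 2 groups only, 0 CpGs passed (smallest adjusted p = 0.151). With library run as a term, chr12:39242451 alone passed (adjusted p = 0.0352). Without unlesioned replicate 5, chr5:76371554 alone passed (adjusted p = 0.0330), and 3 of the 5 passed without L-DOPA replicate 3. Without L-DOPA replicate 1, 9 CpGs passed, among them all 5. The second method, limma on log2 odds, called 2 CpGs: chr7:2876107 (adjusted p = 0.0321) and chr3:8860561, where L-DOPA samples averaged 82.1% ± 6.13 (n = 7) and all 5 unlesioned libraries with a value read 100%. At the rest of the 5 CpGs limma gave adjusted p of 0.150 to 0.615. The model's p-values also came out somewhat too small on simulated data.

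**Figure D1:**
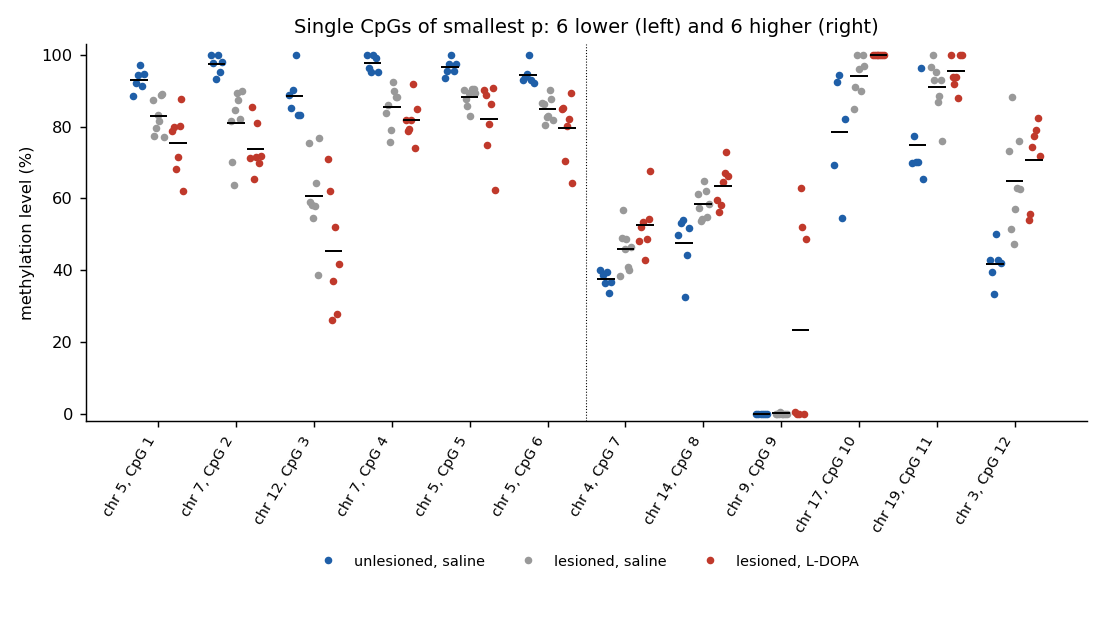
Methylation level (percent) of each library at the 6 CpGs of smallest p in either direction, left 6 lower and right 6 higher under L-DOPA; each point is a library, bars are group means and grey points are lesioned saline. At all 6 lower CpGs the L-DOPA and unlesioned points do not overlap; CpG 9 is carried by 3 L-DOPA libraries.

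No CpG with a higher level under L-DOPA passed, and the 6 with the smallest p had adjusted p of 0.426 to 0.535. At chr4:6805964 L-DOPA libraries ran from 42.9% to 67.7% and unlesioned ones from 33.7% to 40%, without overlap, with means of 52.5% ± 7.76 and 37.5% ± 2.37. At chr3:122570384 the means were 70.7% ± 11.4 and 41.8% ± 5.42 over a median of 28 reads, and at chr14:80640890 they were 63.5% ± 5.79 and 47.5% ± 8.21. At chr17:15712136 all 7 L-DOPA libraries read 100% against 54.5% to 94.4% in 5 unlesioned ones, with a median of 20 reads, and at chr19:52866903 the means were 95.3% ± 4.76 and 74.9% ± 11.2. Lesioned saline averaged 45.8% at chr4:6805964, 64.8% at chr3:122570384, 58.3% at chr14:80640890, 94.1% at chr17:15712136 and 91.1% at chr19:52866903. The CpG at chr9:25648503 was of another kind. It read 0% in all 6 unlesioned libraries at 121 or more reads, and under L-DOPA it read 62.8%, 52.1% and 48.8% in replicates 4, 5 and 7 and at most 0.483% in the other 4. The 3 high libraries all belong to the later run, and lesioned saline averaged 0.0749% ± 0.212 (n = 8).

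Of 183442 tiles of 250 bp tested, 0 passed (0% called, smallest adjusted p = 0.0941, quasi-binomial model), and limma called 0. In the model 11433 had an unadjusted p under 0.05 (6.23%), against 9181 in limma (5.00%). A share of 0.05 is met where nothing differs, so both shares lie near that level. With the read ratio of each library as a term, the model called 133 tiles, all lower under L-DOPA, 139 windows (137 lower) and 173 CpGs (164 lower), so the calls depend on that term. Of the 11433 tiles, 8461 were lower (4.61%) and 2972 higher (1.62%) under L-DOPA. The 12 tiles of smallest p in each direction, among those that differed by at least 5 points, are described here without a claim of change, since they were picked for their p. The 12 lower tiles differed by −25.5 to −8.11 points, held 3 to 7 listed CpGs and had unlesioned means of 64.1% to 95.4%. In 10 of the 12 the groups did not overlap. Over the 150996 tiles measured in all 13 libraries such separation downward occurred in 0.0609%, and upward in 0.0338%.

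The lower tile of smallest p, chr5:76371501-76371750, holds the chromosome 5 CpGs above. Its L-DOPA libraries ran from 64.1% to 90.9% with a median of 84.7%, and unlesioned ones from 92.8% to 99.3% with a median of 95.3%, so the groups did not overlap. The difference was −14.8 points (SE 3.67, adjusted p = 0.0941), and −10.4 points without the high-ratio libraries, where the tile passed (adjusted p = 0.0146). It also passed without L-DOPA replicate 1 (adjusted p = 0.0356), 6 (adjusted p = 0.00710) or 7 (adjusted p = 0.0327). The tile chr4:25541001-25541250, with 5 CpGs, ran from 75.9% to 89.2% under L-DOPA and from 90.8% to 92.9% in unlesioned samples. It differed by −10.1 points (SE 2.01, adjusted p = 0.104), and by −9.78 points on the forward and −10.4 points on the reverse strand. Each of its 5 CpGs was lower, with differences of −11.4 to −8.88 points. It passed without L-DOPA replicate 5 (adjusted p = 0.0302) or 6 (adjusted p = 0.00710).

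The next lower tiles had lower depth, with medians of 137 to 190 reads. On chr6:154036751-154037000 (7 CpGs) unlesioned libraries lay between 78.5% and 81.9% and L-DOPA libraries between 57.1% and 73.1%, a difference of −15.3 points (SE 1.84, adjusted p = 0.104). Its strands differed by −8.01 and −24.8 points. On chr10:101723751-101724000 (4 CpGs) the ranges were 72.2% to 85.3% under L-DOPA and 87.9% to 99.2% in unlesioned samples, and on chr11:64779251-64779500 (4 CpGs) 68.3% to 81.4% and 87.5% to 91.9%. Their differences were −15.9 points (SE 2.40, adjusted p = 0.172) and −15.5 points (SE 1.83, adjusted p = 0.194). A tested tile within 1000 bp of each lay lower too, at −15.6 points on chromosome 10 and −9.02 points on chromosome 11. Over the 12 lower tiles, 4 of 5 such neighbours were lower. The neighbour of chr19:36722001-36722250 differed by 0.12 points and that of chr7:51248501-51248750 by −1.92 points. The chromosome 7 tile 51248501 to 51248750 (3 CpGs) had a mean of 66.7% against 91.9%, a difference of −25.2 points (SE 5.34), but its groups overlapped through L-DOPA replicate 5 at 89.7%. Without that replicate it passed at −29.1 points (adjusted p = 0.00291).

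The remaining 6 lower tiles had adjusted p of 0.351 to 0.443. Of these, chr17:1689751-1690000 differed most, by −25.5 points (SE 6.33), with L-DOPA libraries at 31.2% to 70.1% and unlesioned ones at 72.1% to 90.2%. Its 2 lowest L-DOPA values, 31.2% and 42.4%, came from the high-ratio replicates 7 and 3, and without those libraries and unlesioned replicate 1 it differed by −19.5 points. The tile chr15:55973501-55973750 had the lowest levels of the 12, at 25.7% to 60.7% against 50.6% to 73.2%, with overlap, and passed without L-DOPA replicate 1 (adjusted p = 0.0356). The others, on chr16:72302751-72303000, chr19:36722001-36722250, chr20:47574501-47574750 and chr17:14622251-14622500, differed by −19.3, −17.1, −8.11 and −8.47 points, without overlap between groups.

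The 12 lower tiles were picked on the same reads as the counts that follow, which that choice largely fixes. Of their 50 tested CpGs, 49 were lower, and in all 10 tiles measured on both strands both strands were lower. All 12 were lower within the later run, which holds 10 of the 13 libraries, with differences of −28.4 to −7.30 points, and 7 of the 12 differed there by less than over all 13 libraries. The lesioned saline mean lay between the means of both groups in all 12, which describes tiles picked at the extremes of a comparison and is no test of a lesion effect. Its place between them varied. On chr20:47574501-47574750 it was 82.9%, against 82.1% under L-DOPA and 90.2% in unlesioned samples. On chr7:51248501-51248750 it was 82.3%, against 66.7% and 91.9%.

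Tiles higher under L-DOPA separated less well. The 12 of smallest p differed by 5.01 to 21.9 points, with adjusted p of 0.469 to 0.720, and the groups did not overlap in 4 of them. The tile chr8:130867251-130867500 differed most, with 30.2% to 46.7% in 6 L-DOPA libraries and 14% to 21.5% in unlesioned ones; the means lay 21.9 points apart (SE 2.61) at a median of 57 reads. That difference lay on 1 strand: the forward strand differed by 25.9 points (SE 4.63) and the reverse strand by 0.62 points (SE 6.81). On the X chromosome the tile 140924251 to 140924500, with 13 listed CpGs, ran from 15.6% to 30.1% under L-DOPA and from 4.49% to 19.4% in unlesioned samples, with overlap. It differed by 10.4 points (SE 2.67), by 9.95 and 10.2 points on its strands, and all 10 of its tested CpGs were higher. The tiles chr1:170668501-170668750, chr17:10946751-10947000 and chr17:14457001-14457250 did not overlap and differed by 8.11, 17.3 and 17.1 points over 2 CpGs each. The tile chr20:23045751-23046000 averaged 95.1% ± 4.73 against 81.0% ± 9.21. Of its 4 tested CpGs only 23045971 differed widely, with 90.7% ± 20.9 (n = 5) against 34.3% ± 40.4 (n = 6), and the other 3 differed by −2.23 to 2.20 points. The tile chr3:16738751-16739000 averaged 17.1% ± 10.3 against 4.04% ± 1.82, with L-DOPA values from 3.23% to 34.5%. Its 2 tested CpGs differed by 0.44 and 4.44 points, and with at least 20 reads per cytosine the tile differed by 1.58 points, against 13.1 points at 10 reads. Of the 42 CpGs tested in these 12 tiles 40 were higher, and 4 of the 5 tiles measured on both strands were higher on both, counts that the choice of tiles largely fixes. All 12 were higher in the later run. Of 10 tested tiles within 1000 bp of them, 8 were higher. The neighbour of chr6:140710251-140710500, a tile higher by 19.4 points, differed by −4.19 points.

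**Figure D2:**
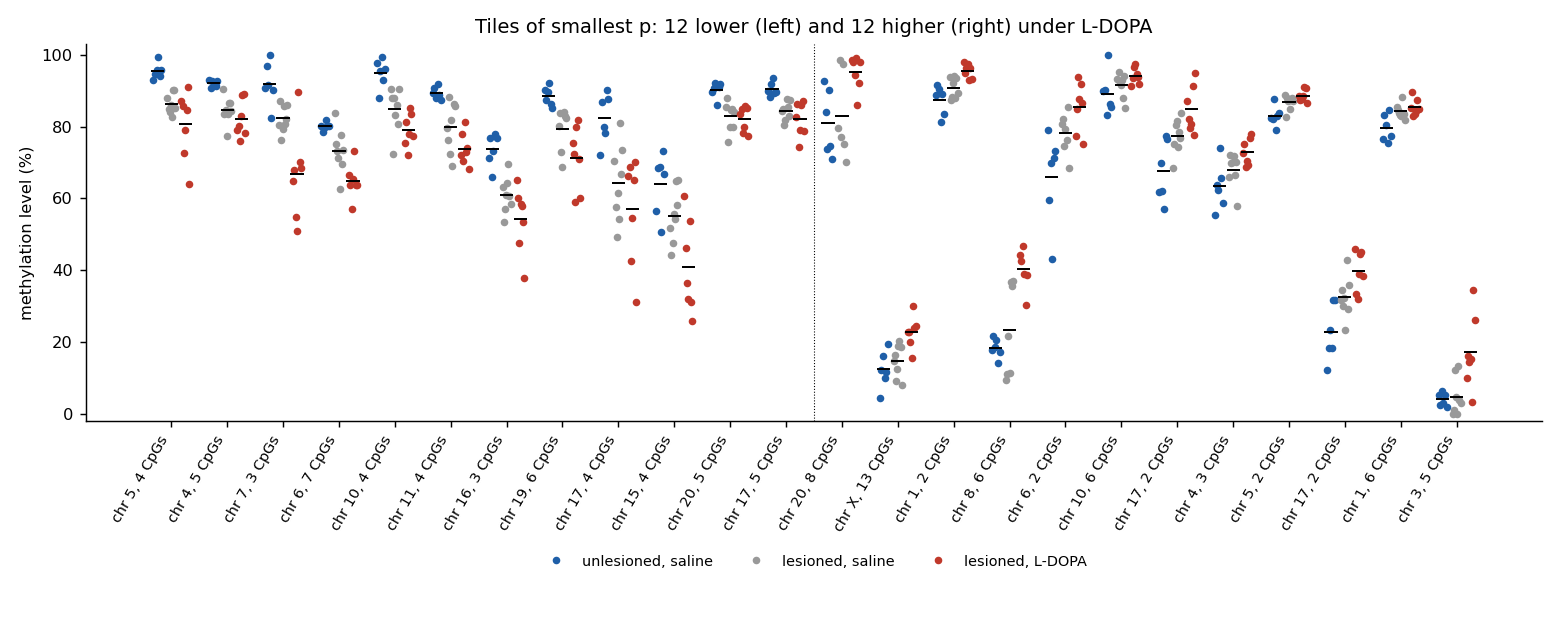
Methylation level (percent) of each library in the 12 lower (left of the dotted line) and 12 higher tiles of smallest p, in order of p; points are libraries, bars are group means, labels give chromosome and listed CpGs. Unlesioned points lie above all L-DOPA points in 10 of the 12 lower tiles, and the groups separate in 4 of the 12 higher ones.

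At the size of 1000 bp, again no feature passed. Of 146740 windows, 0 passed (0% called, smallest adjusted p = 0.140, quasi-binomial model), limma called 0, and 8936 had an unadjusted p under 0.05 (6.09%), 6900 of them lower (4.7%) and 2036 higher (1.39%). Groups did not overlap in 0.0543% of windows measured in all 13 libraries with L-DOPA lower, and in 0.0337% with L-DOPA higher. The 6 lower windows of smallest p each hold 1 of the tiles above, and most differ little from it because few further CpGs were listed. The exception was chr11:64779001-64780000, with 9 CpGs at 42.2% to 62.7% under L-DOPA and 66.3% to 74.96% in unlesioned samples. It differed by −17.2 points (SE 3.43, adjusted p = 0.149) with 6 of 6 tested CpGs lower. Among the 6 higher windows of smallest p, 2 hold none of the 12 higher tiles: chr14:80640001-80641000 (5 CpGs) averaged 68.1% ± 5.04 against 52.9% ± 7.35 without overlap, and chr1:43437001-43438000 (4 CpGs) 61.0% ± 4.95 against 41.2% ± 6.01 without overlap. Their adjusted p were 0.431 and 0.582. The window chr3:16738001-16739000 ran from 9.72% to 24.4% against 1.96% to 7.19%, so the groups that overlapped in its tile did not overlap over 7 CpGs.

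Averaged over the 140434 tiles measured in all 21 libraries, which cover only part of the genome, the means of the groups were close. Over these tiles the L-DOPA libraries averaged 42.6% at the lowest, 47.1% at the median and 47.9% at the highest. Unlesioned ones averaged 43.2%, 47.6% and 48.6%, with almost full overlap. The difference was −0.92 points (SE 1.20, exact two-sided permutation p = 0.434), −0.39 points without the high-ratio libraries (exact permutation p = 0.444) and −0.99 points in the later run (exact permutation p = 0.505). The smallest p these designs allow is 0.00117 for all 13 libraries and 0.00952 for the later run. Over CpGs the difference was −0.88 points (exact permutation p = 0.425) and over windows −1.10 points (exact permutation p = 0.450). By chromosome the mean difference lay between −1.13 and −0.91 points on the autosomes and at −0.47 points on X.

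The difference was spread unevenly over levels and CpG density. Tiles were put into 15 classes by their level in the lesioned saline libraries, which are in neither group compared, by listed CpGs and by distance from islands, here meaning tiles of 8 or more CpGs and a level under 20%. All 15 class means were lower under L-DOPA, and 0 of 15 passed (smallest adjusted exact permutation p = 0.682). Differences were widest at 20% to 80%. Tiles of that level with 2 or 3 CpGs ran from 43.3% to 57.1% under L-DOPA and from 45.2% to 58.7% in unlesioned samples, with means of 52.1% ± 5.68 and 54.4% ± 5.07, or −2.35 points (SE 2.98), and those with 4 to 7 CpGs differed by −2.32 points (SE 2.92). The order of these classes turned in the later run (−2.54 and −2.62 points) and without the high-ratio libraries (−0.92 and −1.03 points). At 2 or 3 CpGs the difference was −4.19 points without unlesioned replicate 1, −0.90 points without L-DOPA replicate 7, −1.08 points without L-DOPA replicate 3 and −1.50 points without unlesioned replicate 5. Tiles of the same level and 15 or more CpGs differed by −1.14 points (SE 1.92). Tiles over 80% differed by −0.63 to −0.38 points and islands, at 2.53% ± 0.0951 against 2.57% ± 0.165, by −0.046 points (SE 0.077). Tiles far from islands differed by −1.29 points (SE 1.69). The class means of one library are not independent of each other. In the later run 14 of 15 were lower, and tiles under 20% with 15 or more CpGs differed by 0.0037 points.

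**Figure D3:**
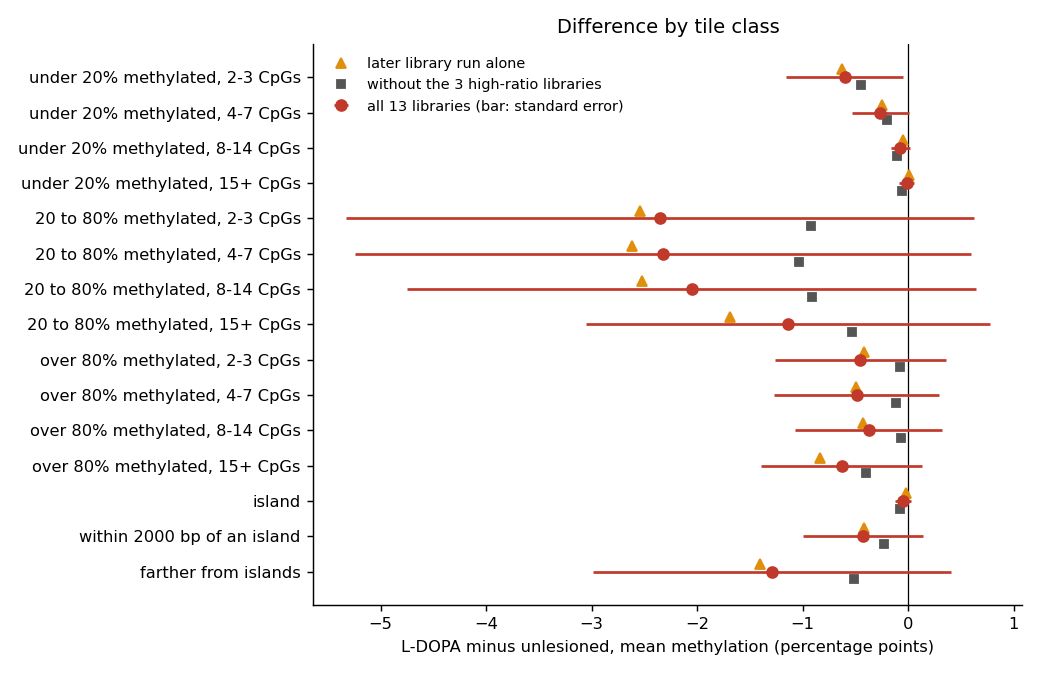
Difference of mean methylation (percentage points, L-DOPA minus unlesioned) in 15 classes of tiles, by level in lesioned saline libraries, listed CpGs and position; circles with standard errors use all 13 libraries, triangles the later run and squares the libraries left without the 3 high-ratio ones. Among classes set by level and CpGs, tiles of 20 to 80% lie farthest from 0, between −2.35 and −1.14 points. Their standard errors are larger than the differences. Tiles farther from islands lie at −1.29 points.

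Among tiles of small unadjusted p, losses outnumbered gains and lay mostly at intermediate levels. Tiles with an unadjusted p under 0.05 and at least 5 points lower, called lost here, numbered 5596 (3.05% of tiles), and those at least 5 points higher, called gained, 1001 (0.546%). Since no tile passed after adjustment, these are descriptive sets. All tiles of unadjusted p under 0.05 made up 6.23% in the model, not far above the 0.05 share met where nothing differs. By limma's p 2.17% of tiles were lost and 0.624% gained. Lost tiles had a median level of 58.5% in lesioned saline libraries, and 69.9% of them lay between 20% and 80%, against 31.7% of all tiles. Gained tiles had a median of 80.6%, with 51.0% above 80% against 36.7% of all tiles. A difference of 5 points has more room at intermediate levels and less near 0% and 100%, where the standard error is also smaller: its median was 5.16 points for tiles of 20% to 80%, 2.32 points above 80% and 0.65 points under 20%. The share lost was largest, 8.22%, at levels of 30% to 40% and fell to 0.215% under 10% and 0.934% above 90%. The share gained was between 0.448% and 0.997% in every bin from 10% upward.

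The same held for CpG number. Lost and gained tiles both had a median of 3 listed CpGs against 4 over all tiles, and 4.84% and 3.60% of them held 8 or more, against 19.3% of all tiles. Islands made up 0.59% of lost and 0.80% of gained tiles against 16.1% of all tiles. Within the intermediate level, however, the share lost did not fall with CpG number up to 14. It was 6.27% at 2 or 3 CpGs, 7.47% at 4 to 7, 7.68% at 8 to 14 and 5.73% at 15 or more (16 of 279 tiles). Without the limit on p, the share at least 5 points lower did fall in these classes, from 29.29% to 26.03%, 20.97% and 11.47%. The median standard error fell as well, from 5.48 to 4.77, 4.06 and 2.97 points. How far this precision shapes the share lost was not tested. At the other sizes lost features were likewise most common at 20% to 80%, with 6.41% of windows and 6.88% of CpGs there, against 1.68% and 2.496% above 80%. Over all levels 3.25% of windows and 3.31% of CpGs were lost, and 1.01% of CpGs were gained.

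The excess of losses moved with single libraries. Without the 3 high-ratio libraries 4666 tiles were lost and 1711 gained, of 188246 tested, and the mean difference at 40% to 50% went from −3.002 to −1.53 points. Leaving out unlesioned replicate 1 alone gave 11363 lost tiles, and leaving out L-DOPA replicate 7 alone gave 3320. Windows moved likewise, from 4771 lost to 10306 without unlesioned replicate 1, 2716 without L-DOPA replicate 7 and 3062 without L-DOPA replicate 3. CpGs went from 25430 lost to 43618 without unlesioned replicate 1. Lost tiles outnumbered gained ones in each of these settings. In the later run 5141 tiles were lost and 843 gained, with a median level of 58.6% and 77.6%.

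**Figure D4:**
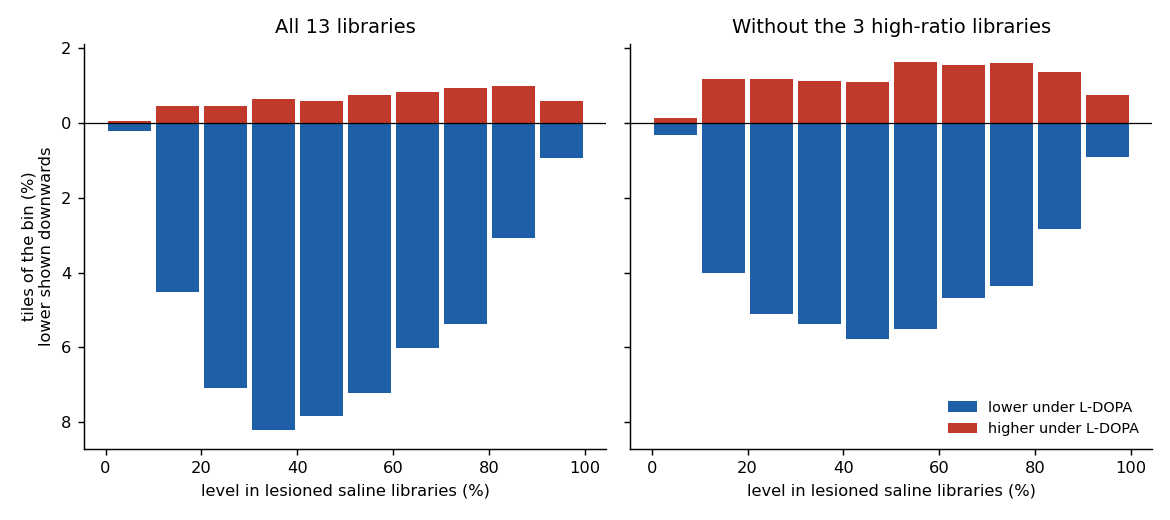
Share of tiles (percent of each bin) that were lower (down) or higher (up) by at least 5 points at an unadjusted p under 0.05, by level in the lesioned saline libraries in bins of 10 points, for all 13 libraries (left) and without the 3 high-ratio ones (right). Losses peak at 8.22% at 30 to 40% on the left and at 5.76% at 40 to 50% on the right, and gains are more frequent on the right in every bin.

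Neighbouring tiles differed in the same direction slightly more often than distant ones, in 54.3% of adjacent pairs against 51.5% of pairs 5000 bp apart. Across 56697 adjacent tile pairs the differences correlated at r = 0.208, and r was 0.108 for starts 500 bp apart, 0.067 at 1000 bp, 0.024 at 2000 bp and 0.001 at 5000 bp. These pairs share libraries, and adjacent tiles can share reads. With the mean of its class taken off each difference, r was 0.142 for adjacent tiles. Beside a lost tile 75.2% of adjacent tiles were lower (all tiles: 56.4%) and 12.1% were also lost (all tiles: 2.00%). Beside a gained tile 50.3% were higher (all tiles: 43.6%) and 1.86% were also gained (8 of 429). At 1000 bp, beyond the reach of a 50-base read, 62.9% of tiles near a lost one were lower, against 56.5% of all, and without the high-ratio libraries 55.96% against 54.5% (r = 0.025). Without the high-ratio libraries adjacent tiles correlated at r = 0.117, and 66.8% of those beside a lost tile were lower (all tiles: 54.2%), while 58.5% of those beside a gained tile were higher (all tiles: 45.8%). In the later run r was 0.193.

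**Figure D5:**
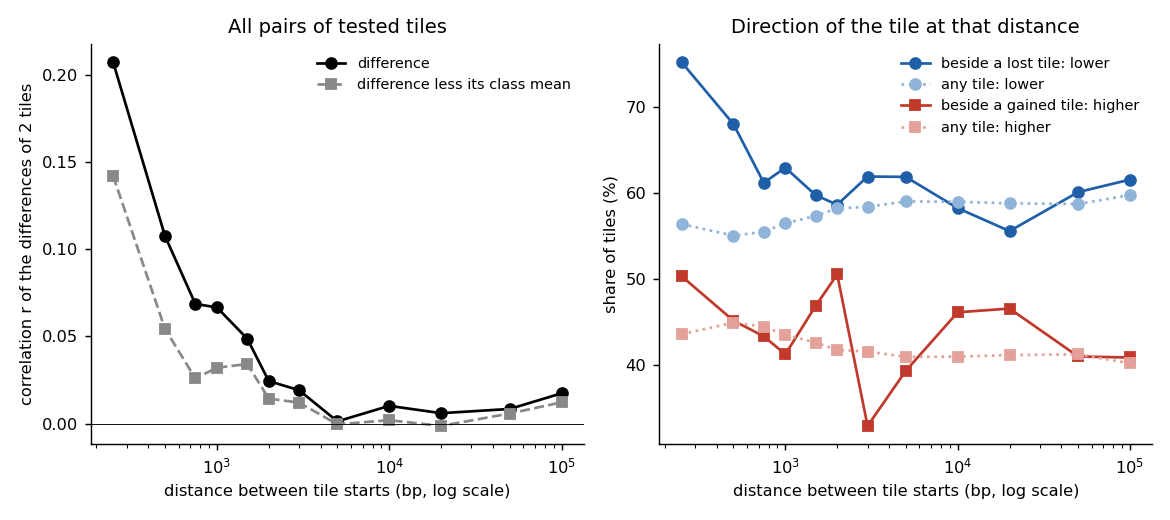
Left, correlation across tile pairs of the difference between groups against distance (bp, log scale), as measured and less the class mean; right, share of tiles (percent) at that distance that were lower near a lost tile or higher near a gained one, with the share over all tiles dotted. The correlation falls from 0.208 at 250 bp to 0.001 at 5000 bp, and the share lower beside lost tiles falls from 75.2% towards the dotted line.

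Few tiles joined into longer stretches. The 183442 tested tiles formed only 56697 adjacent pairs, which itself limits how far a run can reach. Tiles of unadjusted p under 0.05 and 1 direction, with gaps of at most 500 bp, formed 8218 lower and 2924 higher runs. Of these, 235 and 45 held 2 or more tiles, or 5.65% of the lower and 3.13% of the higher tiles, and 7 and 3 held 3 or more. The longest lower run, chr18:28150501-28151750, held 4 tiles and 16 CpGs and ran from 20.7% to 52.2% under L-DOPA and from 31.3% to 58.3% in unlesioned samples. Its difference was −13.2 points (SE 6.08), and its groups overlapped. Lesioned saline libraries averaged 37.5% ± 8.01 there, close to the 35.6% ± 12.4 of L-DOPA. The lower runs of 3 tiles with the smallest mean p, on chr7:1610001-1610750, chr15:14164001-14164750 and chr16:788001-788750, differed by −4.78, −4.51 and −6.14 points. The 3 higher runs of 3 tiles, on chr13:115141001-115141750, chr16:79276501-79277250 and chr5:40491501-40492250, had low levels and differed by 4.10, 2.19 and 1.08 points. On chromosome 13 the mean rested on 1 library at 24.4%, where the L-DOPA median was 4.20%. The smallest adjusted p of a tile in these 7 runs was 0.767. A higher run of 2 tiles and 76 CpGs, chr7:12174001-12174500, averaged 1.71% ± 0.477 against 1.06% ± 0.325.

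The strands of a tile are read by separate reads and so give separate measurements within a library. Across the 56425 tiles tested on both strands the differences correlated at r = 0.225, while the levels themselves correlated at r = 0.977. Of 1255 tiles lost on the forward strand, 75.1% were lower on the reverse strand (all tiles: 55.5%), with a median of −2.88 points there against −9.22 points on the strand they were chosen on. Chosen on the reverse strand, 74.7% of 1293 were lower on the forward strand (all tiles: 55.8%). Of 211 tiles gained on the forward strand, 46.4% were higher on the reverse strand (all tiles: 44.5%), with a median of −0.36 points, and of 221 gained on the reverse strand 53.4% were higher on the forward strand (all tiles: 44.2%). Tiles lost on one strand were thus mostly lower on the other, at a smaller size; whether losses and gains differ in this was not tested. Both strands share the library and its overall level. Without the high-ratio libraries r was 0.118, and 63.8% and 65.9% of the tiles lost on one strand were lower on the other (all tiles: 53.8% and 54.0%). In the later run the shares were 74.6% and 72.2%.

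At single CpGs 16.8% of listed CpGs had reads on both strands. Over the 159298 CpGs tested on both, the differences correlated at r = 0.168 and the levels at r = 0.982. The strands had the same sign at 50.8% of these CpGs, and at 58.3% of the 18852 at intermediate levels. Tested on its own, the forward strand gave 0 tiles past the threshold of 113160 (smallest adjusted p = 0.0887) and the reverse strand 2 of 113246. These were the chromosome 5 tile, which has reverse-strand reads only (adjusted p = 0.0195), and chr7:2876001-2876250, where the reverse strand averaged 70.8% ± 5.64 against 90.2% ± 7.48, or −19.3 points (SE 3.72, adjusted p = 0.0158).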

How the data were processed

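Striatal DNA was treated with bisulfite and read as single-end sequences of 50 bases, per the labels. Mapping was to rn5 with Bismark 0.13.0 among the tools listed, beside methylKit 0.9.2, Trim Galore 0.3.7, SAMtools 0.1.19 and FastQC 0.10.1, per the submitters' processing notes and the series' design text. The deposited tables give, per cytosine of a CpG, its coverage (a read count) and the percent of reads showing C. Coverage times percent gave whole methylated reads for 100% of cytosines, which were tested as counts. De-duplication is named per the labels' protocols, yet 37.5% to 58.8% of cytosines had over 50 reads in the libraries compared, so PCR copies may remain and counting errors may be too small. No columns were left unmapped.

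Cytosines were placed at the forward-strand position of their CpG on chromosomes 1 to 20 and X. Unplaced contigs, up to 0.0645% of cytosines, were left out. Tiles and windows needed 2 listed cytosines in a library, and all features 5 libraries per group and a mean level of 1% to 99%. A quasi-binomial logistic model was fitted to all 21 libraries in 3 groups, without covariates. Dispersions were moderated as in limma's squeezeVar, with 1 as the lowest value, and the group difference was tested by an F-test on the deviance, with Benjamini-Hochberg adjustment over all features. Differences are between unweighted group means in percentage points. On simulated data with known changes the model's p-values came out somewhat too small. For the alternative, limma 3.58.1 in R 4.3.3 was run on log2 odds with 0.5 added to both counts. Other steps used Python 3.11.15, numpy 2.4.6, pandas 2.3.3, scipy 1.17.1 and matplotlib 3.10.9.

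The features described are the 12 tiles and the 6 windows and CpGs of smallest p in each direction among those differing by at least 5 points with 6 L-DOPA and 5 unlesioned libraries, up to 4 runs per direction, and tiles called with libraries left out. Settings without the high-ratio libraries for strands, neighbours and lost or gained tiles were added after seeing the data. Features, classes and lists were chosen with earlier results of these data known. Promoter and marker lists were dropped because no rn5 annotation was used here. The replicate numbers shared by both groups were not treated as pairs, since the labels do not say that they pair the samples.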

Additional observations from a re-analysis of the deposited data

Results flagged for a closer look

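In groups of 4 to 10 libraries the highest and lowest values were compared with the rest by Dixon's test, over 136 sets of values, and 5 had a library far from the others, where chance gives 6.8. In the window chr14:80640001-80641000, higher under L-DOPA, 1 unlesioned library read 38.5% and the next 52.2%. In the window chr1:43437001-43438000, 1 L-DOPA library read 71.7% and the next 60.9%. At chr5:76371573, 1 unlesioned library read 100% and the next 94.6%. In tiles of 20% to 80% with 15 or more CpGs, 1 unlesioned library averaged 34.9% and the next 40.9%, and in tiles over 80% with 15 or more CpGs, 1 averaged 89.1% and the next 91.4%.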

How the results depend on the processing

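Mean methylation stayed lower under L-DOPA and did not pass in any setting run. With single libraries left out the difference ran from −1.69 to −0.34 points. No tile class passed in any setting run. No named tile, window or CpG changed sign over 919 values in alternative settings. These features were picked for a small p and a difference of at least 5 points in the same libraries, which largely fixes that outcome. At single CpGs 47 of 226 such values lost the call and 4 gained it.

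Counts of calls did change, and beyond the settings themselves the cause was not tested. Leaving out single libraries gave 0 to 2 tiles, 0 to 2 windows and 0 to 9 CpGs. Without the 3 high-ratio libraries 1 tile, 1 window and 3 CpGs passed, of which 2 CpGs were lower and chr3:119988547 was higher. The later run alone and a fit of the 2 groups gave 0 CpGs. Library run as a term gave 1 CpG, limma gave 2 CpGs and reverse-strand cytosines alone gave 2 tiles. Read ratio as a term gave 133 tiles (0 higher), 139 windows (2 higher) and 173 CpGs (9 higher). A test without overdispersion (adjusted p under 0.01 and 5 points) gave 13787, 12958 and 27248.

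In the labels the samples of both groups share only a number. Deviations of the 6 same-numbered pairs correlated at −0.308 to 0.150, and 1 of 6 was closest to its own number. With so few pairs this cannot settle whether they are paired. With a replicate block 0 tiles, 0 windows and 0 CpGs passed, and the mean difference was −0.34 points (exact sign-flip permutation p = 0.719).

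The share of unadjusted p under 0.05 that was lower, 74.0% over tiles, follows from 8461 lower and 2972 higher tiles; without the high-ratio libraries 7740 were lower and 3581 higher, without unlesioned replicate 1 15128 and 2461, and without L-DOPA replicate 7 5771 and 3369. The median standard error at 20% to 80% was 6.82 points for single CpGs and 4.94 points for windows. Over all levels the median was 54 reads for tested CpGs and 213 reads for tested windows.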
